A study of Rattus norvegicus with 20 samples.

Results

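The comparison described here is between primary cultures of neonatal rat heart treated for 6 h with diclofenac at the lowest concentration tested and untreated cultures of the same kind. It covers 5 of the 20 arrays of the series: the 3 arrays whose titles give a reference concentration of 1/25 and 6 h, and the 2 arrays whose titles say non-treated. Hearts were taken from newborn rats, the cells were grown for a day in DMEM, and the cultures were then left without drug or given diclofenac, for 6 h or 24 h, at a concentration called 1 or at 1/5 or 1/25 of it. The labels call the cells cardiomyocytes and give no strain, no genetic change, no sorting step, no molar value of the reference concentration and no time in culture for the untreated arrays. The design text speaks of 3 replicates per condition, and 2 untreated arrays were analysed here. Nothing in the labels ties replicates to different animals or culture dishes, and the spread behind each p-value may therefore be technical. A primary heart culture can hold fibroblasts and other cells beside the muscle cells, and with RNA from the whole culture fewer cells of a type and less RNA per cell cannot be told apart.

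Diclofenac is a non-steroidal anti-inflammatory drug. It blocks the cyclooxygenases, the enzymes that turn arachidonic acid into prostaglandin H2, from which specific synthases make prostaglandin E2, prostacyclin, thromboxane and the other prostanoids. These act on receptors of their own at the cell surface. In the heart, prostanoids influence vessel tone, platelet function and the response to injury, and drugs of this class are known for cardiovascular side effects.

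All 41012 probes of the array were read as brightness in 1 colour, and values below are log2 signals relative to the 75th percentile of the same array, so that 0 is the signal that 75% of the spots do not exceed. A total of 30461 genes had a probe bright enough to be tested. The share of spots well above background was 82.5% and 84.7% on the untreated arrays, and 83.2%, 75.1% and 86.1% on treated replicates 1, 2 and 3. Between 7.16% and 9.68% of spots on these 5 arrays were saturated, so differences among the brightest genes are compressed. Treated replicate 2 stood apart: 5288 genes lay more than 1 log2 unit below both other treated arrays, against 237 for replicate 1 and 263 for replicate 3. Its correlation across genes with the other treated arrays was 0.930 and 0.920, while replicates 1 and 3 correlated at 0.958 and the untreated pair at 0.969. List medians and the main counts are therefore given with and without it. The 2 untreated arrays shared a slide and the first scan day, and the treated arrays lay on 2 other slides scanned on a later day, so slide, scan day and treatment cannot be told apart.

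The probes of 6 genes that the results below turn on are shown: Ccn2, Zfp865, Plb1 and Fdxacb1, which earlier results of these data named, and Vdr and Akr1b7, which were dim on every treated array. Each is 60 bases and is given 5′ to 3′ in lower case as designed on the array, so that a reader can see which transcript was read.
Ccn2, rn3 chr1:21328927-21328986, minus strand: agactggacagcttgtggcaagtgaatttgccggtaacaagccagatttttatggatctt
Zfp865, rn3 chr1:67625085-67625144, plus strand: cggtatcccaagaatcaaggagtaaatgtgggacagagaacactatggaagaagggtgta
Plb1, rn3 chr6:24211309-24211368, minus strand: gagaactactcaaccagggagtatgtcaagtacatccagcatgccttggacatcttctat
Vdr, rn3 chr7:136646496-136646555, minus strand: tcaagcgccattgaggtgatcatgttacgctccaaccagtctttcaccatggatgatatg
Akr1b7, rn3 chr4:62082899-62082958, plus strand: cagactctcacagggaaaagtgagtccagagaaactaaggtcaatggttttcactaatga
Fdxacb1, rn3 chr8:54148632-54148691, plus strand: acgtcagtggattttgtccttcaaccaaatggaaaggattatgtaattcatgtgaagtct
The GC content of these probes ran from 36.7% for Fdxacb1 to 46.7% for Vdr. Positions are those in the array files, and no annotation of that build was used to place them in exons or UTRs.

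No gene passed the test between the treated and the untreated cultures. Of 30461 genes, 0 (0.0%) had an adjusted p under 0.05 in limma, with the lowest adjusted p at 1.00, and 353 (1.16%) had an unadjusted p under 0.05, of which 39 (0.128%) were higher and 314 (1.03%) lower after treatment. The median difference over all genes was -0.07 with a median SE of 0.551. Each SE pools the spread of all 7 groups of the series and not only of the arrays compared. Without the third array of 1/5 at 24 h the median SE was 0.424. On all 3 treated arrays 1336 genes (4.39%) lay above both untreated arrays and 1969 (6.46%) below both. Of these, 87 genes (0.286%) were higher by at least 1 log2 unit on average and 477 (1.57%) lower. The 2 untreated arrays themselves differed by at least 1 log2 unit in 8.35% of genes.

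The surplus of lower genes went with treated replicate 2. It was the lowest of the 3 treated arrays for 315 of the 477 lower genes, and 262 of the 477 were still lower by at least 1 without it, with a median of -1.05 in place of -1.29. Of the 87 higher genes, 62 were still higher by at least 1, with a median of 1.29 in place of 1.34. When non-overlap was judged on replicates 1 and 3 alone, 322 genes were higher and 366 lower by at least 1. The split also moved with the scaling of the arrays: 237 higher and 235 lower after quantile normalization, 178 and 362 after scaling to the array median, and 173 and 367 in the authors' deposited ratios. Scaling to the median moved the median of all genes to 0.08, so a difference near 0 has no settled direction.

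**Figure D1:**
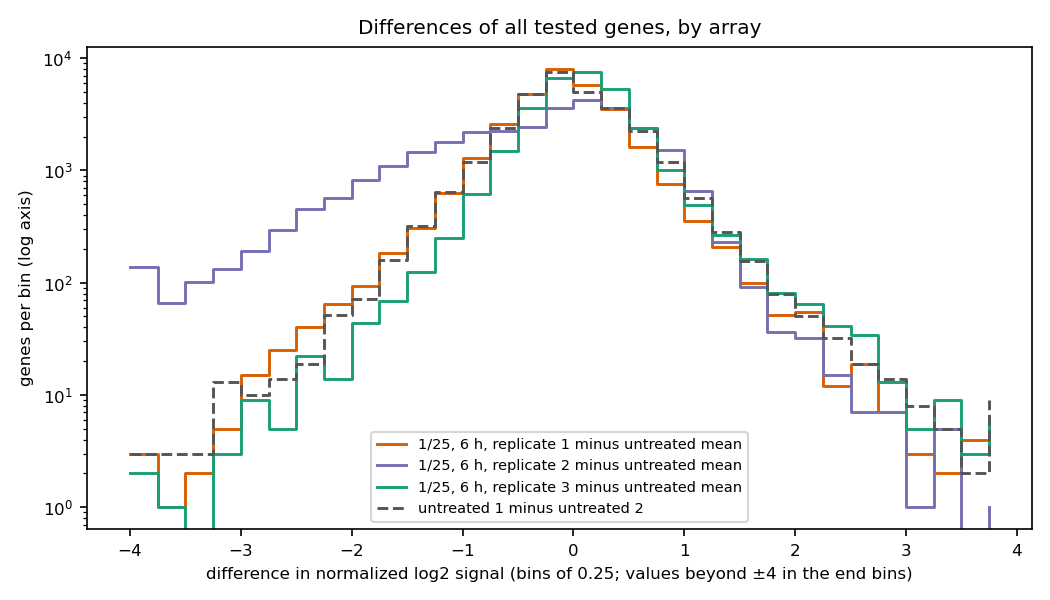
Number of genes (log axis) by difference in normalized log2 signal from the untreated mean, for each treated array (solid lines) and for untreated replicate 1 minus replicate 2 (dashed). Replicate 2 has a long tail of lower values, with 7121 genes at least 1 log2 unit below the untreated mean against 1372 for replicate 1 and 544 for replicate 3.

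Genes known only by a locus, clone or sequence identifier were left out when genes were ranked by p for naming. Ccn2 encodes connective tissue growth factor, a matrix-associated protein induced by TGF-beta and by mechanical load. Among the ranked, non-overlapping genes that were higher by at least 1 and bright on all 5 arrays, Ccn2 had the smallest p. Its signal was -0.14 and 0.29 on the untreated arrays and 1.58, 1.64 and 0.87 on treated replicates 1, 2 and 3. Every treated array lay above both untreated ones. The difference was 1.29 ± 0.44 (log2, SE), or 2.44-fold, and it did not pass the test (limma, adjusted p = 1.00). The 6 arrays of the other concentrations at 6 h, scanned on the first day with the untreated ones, lay between -0.30 and 0.09. The 9 arrays treated for 24 h, scanned on later days, lay between 0.11 and 2.01. The later arrays thus differed from the first-day ones in scan day and also in treatment or time. The range of the 24 h arrays overlapped that of the untreated ones. The parts of scan day, time and treatment were not tested.

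Zfp865 encodes a zinc finger protein. It had the smallest p among the ranked, non-overlapping genes that were lower by at least 1 and bright on all 5 arrays. It measured -1.77 and -1.50 on the untreated arrays and -3.46, -3.39 and -2.96 on the treated arrays. The groups did not overlap and differed by -1.63 ± 0.38 (log2, SE), and adjusted p was again 1.00 in limma. Plb1, which encodes phospholipase B1, a membrane-bound lipase, measured -3.73 and -4.06 untreated and -5.66, -5.66 and -6.71 treated. Its difference was -2.11 ± 0.47, but only 1 of the 3 treated arrays was well above background, so that the low end is poorly measured. Both genes were also lower than untreated in the other 6 h groups: the first-day arrays of the higher concentrations lay between -3.07 and -2.39 for Zfp865 and between -5.55 and -4.61 for Plb1.

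Another 7 bright genes were named on the higher side by the same rule. Il22ra1, a receptor subunit for interleukin 22, was -3.45 and -3.40 untreated and -2.22, -1.24 and -2.50 treated. Prkd2, a serine/threonine kinase of the protein kinase D family, differed by 1.37 ± 0.53 and Os9, a lectin of endoplasmic reticulum quality control, by 1.14 ± 0.47. Replicate 2 was the highest array for these 3 genes. Utp6, a factor of ribosomal RNA processing, differed by 1.58 ± 0.73, Rab34, a small GTPase, by 1.49 ± 0.73, and Adck5, a predicted kinase, by 1.60 ± 0.72. Irf2bp1, a transcriptional co-repressor, was -3.34 and -3.42 untreated and -2.62, -3.26 and -0.83 treated, so that its mean difference of 1.14 ± 0.55 came mostly from replicate 3.

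Another 7 bright genes were named on the lower side. Catsper2, a subunit of the calcium channel of sperm, was 0.65 and 0.90 untreated and -2.02, -2.39 and 0.10 treated. Exd2, an exonuclease, was -0.60 and -0.58 untreated and -2.76, -2.69 and -1.06 treated. In both genes treated replicate 3 lay close to the untreated arrays, with replicates 1 and 2, which shared a slide, far below it. Tec, a non-receptor tyrosine kinase, was more even, with -2.78 and -2.95 untreated and -4.29, -4.10 and -3.86 treated, a difference of -1.22 ± 0.39. Pgr, the progesterone receptor, differed by -1.45 ± 0.47 and Adam5, a member of the ADAM family, by -1.17 ± 0.37. Dock9, an activator of the GTPase Cdc42, differed by -1.38 ± 0.42. Akap7, an anchoring protein for protein kinase A, was -1.48 and -3.84 on the untreated arrays, so its difference of -2.02 ± 0.62 came largely from 1 untreated array.

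**Figure D2:**
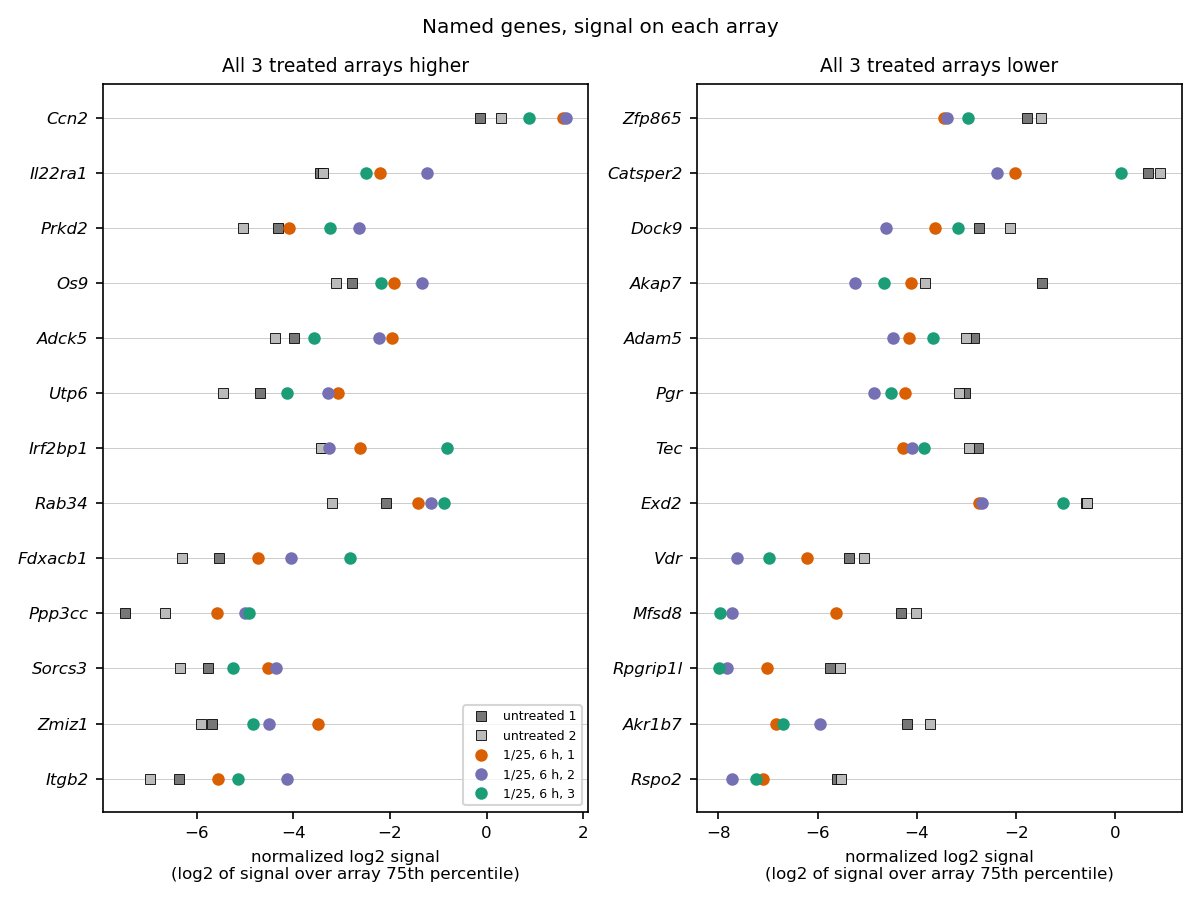
Normalized log2 signal of 26 genes on each of the 5 arrays, with untreated arrays as squares and treated arrays as circles; the left panel holds genes higher on all 3 treated arrays and the right panel genes lower on all 3. Ccn2 runs from -0.14 to 1.64 and Zfp865 from -3.46 to -1.50, and the untreated squares never lie inside the range of the treated circles because the genes were chosen that way.

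A few genes crossed the limit at which a spot is well above background, and for them only a bound on the fold can be given: the mean of the bright group against the higher of the background limit and the dim signal. Of the 30461 genes, 41 were dim on both untreated arrays and bright on all 3 treated ones, and 123 were bright on both untreated and dim on all treated arrays. Fdxacb1, named for its ferredoxin-fold anticodon-binding domain, was -5.54 and -6.31 untreated and -4.74, -4.06 and -2.82 treated, at least 3.89-fold higher. The limit is the lowest signal of any bright spot on an array, and dim spots can lie above it, so the bounds are approximate. Zmiz1, a transcriptional co-regulator, was 2.88-fold higher. This is its plain difference and no bound, as its untreated signals of -5.69 and -5.92 lay above the limits of -5.93 and -6.12. Bounds for the others named on this side were at least 2.34-fold for Sorcs3, a sorting receptor, and at least 2.10-fold for Itgb2, the beta-2 integrin of leukocytes. Ppp3cc, a catalytic subunit of calcineurin, was at least 1.82-fold higher. None of these passed the test (limma, adjusted p = 1.00).

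On the other side, Akr1b7, an aldo-keto reductase, was -4.21 and -3.74 untreated and -6.84, -5.95 and -6.69 treated, at least 4.44-fold lower. Vdr, the vitamin D receptor, was -5.36 and -5.06 untreated and -6.21, -7.63 and -6.98 treated, at least 1.89-fold lower. Rspo2, a secreted activator of Wnt signalling, was -5.61 and -5.53 untreated and -7.10, -7.72 and -7.25 treated, at least 1.47-fold lower. Mfsd8, a lysosomal membrane protein, was at least 3.58-fold lower and Rpgrip1l, a protein of the ciliary transition zone, at least 1.39-fold lower. Each had an adjusted p of 1.00 in limma. Being bright on both untreated arrays was enough for a gene to enter the test, whereas the other groups need 3 bright arrays. That favours lower values after treatment. Rpgrip1l was well above background on 3 of the 20 arrays, 2 of them untreated, so it entered through the untreated group alone. Genes of the opposite class were bright on all 3 treated arrays, which was also enough.

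The targets of the drug were measured. Ptgs1, the constitutive cyclooxygenase, was 1.79 and 1.48 untreated and 1.74, 1.89 and 1.58 treated, with overlapping groups and a difference of 0.10 ± 0.63. Ptgs2, the inducible cyclooxygenase, was -1.67 and -1.77 untreated and -2.21, -1.83 and -2.11 treated. All treated arrays lay below the untreated ones, by -0.33 ± 0.68, which is less than its SE. That SE also reflects another group: the SD of Ptgs2 was 1.85 at 1/5 for 24 h, against 0.07 untreated and 0.20 at 1/25 for 6 h. Ptges, the inducible prostaglandin E synthase, was -1.75 and -1.63 untreated and -1.87, -3.06 and -1.91 treated, so replicate 2 made most of its difference of -0.59 ± 0.35. Among the 19 measured of 26 genes for prostanoid synthesis and receptors, 0 passed the test, 0 lay above and 2 below on all treated arrays, against 4.39% of all genes above and 6.46% below. These shares of all genes stand behind every count of members above or below in what follows. The list's median difference was -0.18, with array medians of -0.07, -0.72 and 0.21. Without replicate 2 it was -0.06.

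The muscle programme showed no called gene. Of 24 contractile and sarcomere genes 21 were measured, all of them bright on the 5 arrays, with 0 above and 2 below on all treated arrays (4.39% and 6.46% of all genes). Their median difference was -0.00, and -0.06 without replicate 2. Saturation limits this median: 4 of the 21 genes were saturated on at least 1 array and 2 on all 5, and the 17 that were never saturated had a median of -0.17. Below were Myom1, a protein of the sarcomere M-band (-0.36 ± 0.39), and Ckmt2, the mitochondrial creatine kinase of muscle (-0.24 ± 0.44). Replicate 2 carried both, and without it they differed by -0.06 and -0.09. Of the 24 calcium-handling and ion channel genes, 3 lay above and 1 below (4.39% and 6.46% of all genes). Kcna5, a voltage-gated potassium channel, was -4.31 and -4.44 untreated and -3.62, -3.83 and -3.81 treated, a difference of 0.63 ± 0.55. Cacnb2, an L-type calcium channel subunit, differed by 0.37 ± 0.39 and Kcnd2, a potassium channel of the transient outward current, by -1.02 ± 0.49. This list's median of -0.22 was 0.03 without replicate 2, where the array median was -0.60.

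Of 12 measured cardiac stress and fetal genes, 3 lay above and 0 below (4.39% and 6.46% of all genes), with a median of 0.04 that was 0.05 without replicate 2. Beside Ccn2 these were Acta1, skeletal alpha-actin, at 1.27 and 1.15 untreated and 1.84, 2.00 and 1.69 treated (0.63 ± 1.09), and Rcan1, a calcineurin inhibitor (0.17 ± 0.48, and 0.09 without replicate 2). Nppa, atrial natriuretic peptide, overlapped between the groups (0.41 ± 0.84). The SE of Acta1 also reflects another group: its SD was 2.87 at 1/5 for 24 h, against 0.08 untreated and 0.16 at 1/25 for 6 h. Ccn2 also belongs to a list of 22 targets of YAP, TGF-beta and SRF, of which 21 were measured, with 1 above and 1 below (4.39% and 6.46% of all genes). Its median of -0.22 turned to 0.08 without replicate 2. The member below was Ltbp2, a fibrillin-binding matrix protein, at -0.39 ± 0.68. Thbs1, thrombospondin 1, ranged from -8.03 on replicate 2 to -0.17 on replicate 1. Ccn1, another member of the CCN family, was saturated on all 5 arrays and gives no fold.

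Stress and inflammatory genes likewise held no called member. The integrated stress response and ER stress list (24 of 26 measured) had a median of 0.06, which was 0.01 without replicate 2, and 0 members outside the untreated range in either direction on all treated arrays. For 25 NRF2 genes the median was 0.05, and 0.06 without replicate 2, with Hmox1, heme oxygenase 1, at 0.22 ± 0.45 and Gpx2, a glutathione peroxidase, at -0.56 ± 0.42. Heat shock genes (18 of 19 measured) had a median of 0.05 and p53 targets (17 of 20) one of -0.08, and both turned sign without replicate 2, to -0.03 and 0.05. NF-kB and inflammatory genes (18 of 24) had a median of -0.31, which was -0.30 without replicate 2. Of these, Ccl2, a monocyte-attracting chemokine, was -3.75 and -3.07 untreated and -4.98, -4.17 and -4.47 treated, below on all 3 arrays by -1.13 ± 0.91. It was 1 of 18 below, against 6.46% of all genes. Interferon-stimulated genes had a median of -0.17 and immediate early genes one of -0.18, both with 1 member above and 1 below (4.39% and 6.46% of all genes). Without replicate 2 these medians turned to 0.02 and 0.03.

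Metabolic lists stayed near the median of all genes, which was -0.07. The median was 0.06 for 24 fatty acid oxidation and PPAR genes, 0.06 for 26 oxidative phosphorylation genes and 0.06 for 24 cholesterol synthesis genes. Without replicate 2 these were 0.07, -0.04 and 0.09. Hadh, an enzyme of mitochondrial beta-oxidation, differed by 0.43 ± 0.35 on a probe saturated on 1 untreated and 2 treated arrays, so the value may be compressed. A second, dimmer kept Hadh probe differed by 0.01 with overlapping groups. Sdhd, a subunit of succinate dehydrogenase, differed by 0.54 ± 0.46, and by 0.30 without replicate 2. The 26 glycolysis and hypoxia genes had a median of 0.02 (0.03 without replicate 2), with 0 above and 3 below, against 4.39% and 6.46% of all genes: Ndrg1, a stress-responsive gene (-1.06 ± 0.47), Vegfa, the vascular growth factor (-0.84 ± 0.80), and Bnip3, a mitophagy receptor (-0.73 ± 0.75). Vegfa was -0.83 and -0.89 untreated and -1.18, -2.99 and -0.94 treated, so replicate 2 carried its difference, which was -0.19 without it. A second kept Vegfa probe, also bright on all 5 arrays, differed by -0.24 with overlapping groups. Ndrg1 differed by -0.60 without replicate 2 and was well above background on 2 of the 3 treated arrays. The 17 circadian clock genes had a median of -0.26, which was -0.00 without replicate 2, and 3 lay below (6.46% of all genes), among them Bhlhe40, a transcriptional repressor of the clock, at -5.28 and -4.47 untreated and -5.87, -7.87 and -6.73 treated. Bhlhe40 was well above background on 1 of the 3 treated arrays. The 21 measured genes of drug metabolism and transport had a median of 0.10, and 0.15 without replicate 2. Cyp4b1 differed by -0.61 ± 0.33. Cyp1b1 differed by 0.22 ± 0.30, with saturation on 1 untreated and 1 treated array. A second, dimmer kept Cyp1b1 probe differed by -0.23 with overlapping groups. The apoptosis, cell cycle and proteasome lists had medians of -0.03, -0.01 and 0.06, and without replicate 2 of 0.01, 0.13 and -0.09.

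**Figure D3:**
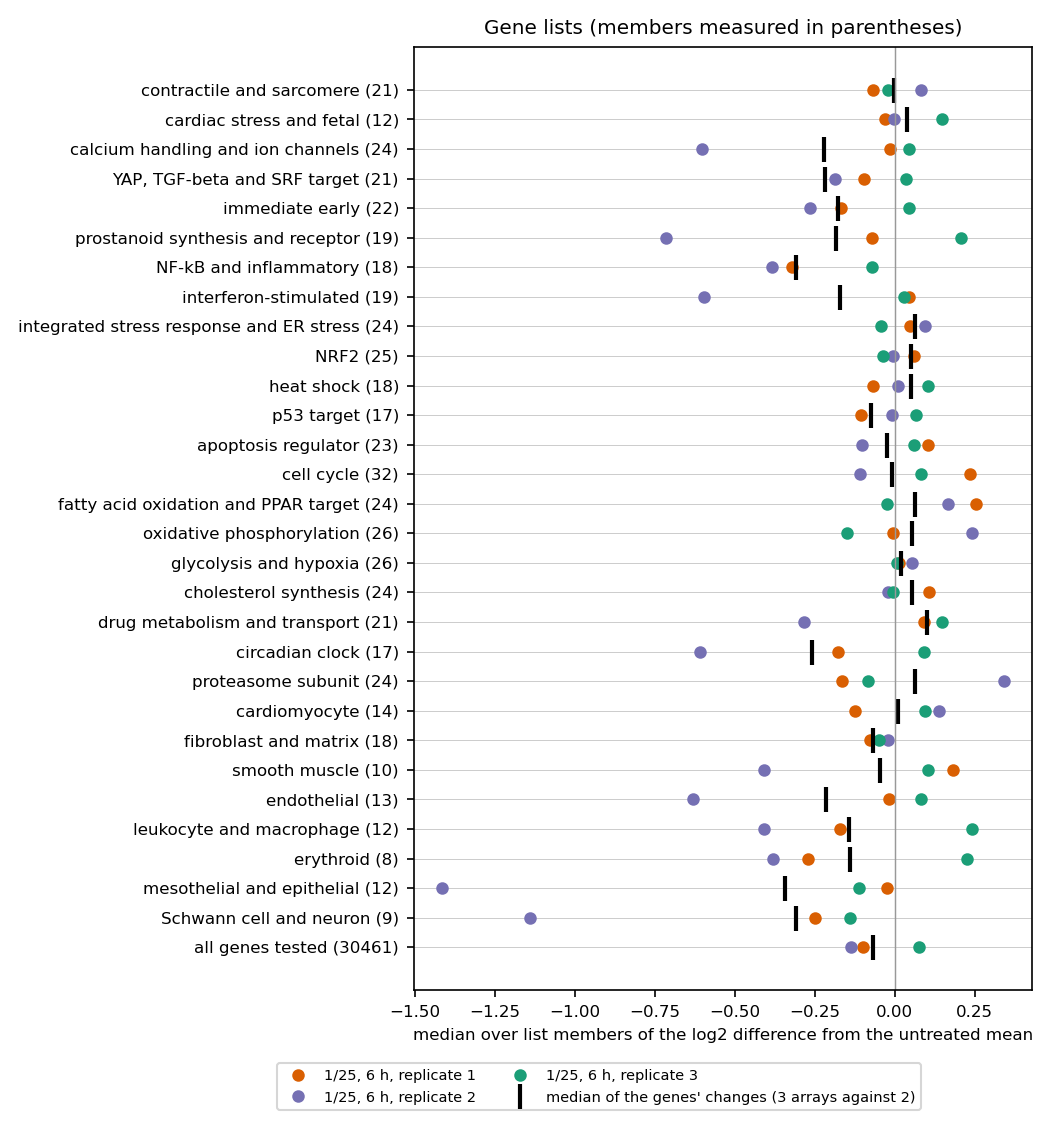
Median over the members of each gene list of the log2 difference from the untreated mean, for each treated array (circles) and for the fitted change over the 3 arrays (black bars). Most lists lie near 0 on replicates 1 and 3, while on replicate 2 the mesothelial list reaches -1.42 and the Schwann cell and neuron list -1.14.

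Markers of the labelled cell type were present: all 14 measured of 15 cardiomyocyte markers were well above background on all 5 arrays, with a median difference of 0.01 (0.09 without replicate 2). Their summed linear signal, in units of the array's 75th percentile, was 23.4 and 26.3 on the untreated arrays and between 23.8 and 30.2 on the treated ones. The 18 fibroblast and matrix markers were present too, at 32.6 and 35.1 untreated and 32.9 to 33.3 treated. Saturation limits both sums: 3 of the 14 cardiomyocyte and 6 of the 18 fibroblast markers were saturated on at least 1 array. Of these, 1 and 4 were saturated on all 5 arrays. The 11 cardiomyocyte markers never saturated had a median difference of -0.17, and the 12 such fibroblast markers one of -0.07. The median difference of several other marker lists was low on replicate 2, while their summed signals, which the brightest members set, were the lowest of the treated arrays there for leukocytes only. Mesothelial and epithelial markers (12 of 13 measured) had a median difference of -0.34, with array medians of -0.02, -1.42 and -0.11 and -0.11 without replicate 2. Their summed signal was 4.32 and 3.39 untreated and 3.42, 3.46 and 3.21 treated. Schwann cell and neuron markers (9 of 10) had a median of -0.31, with array medians of -0.25, -1.14 and -0.14 and -0.20 without replicate 2. Their sum was 1.99 and 1.84 untreated and 1.43, 1.46 and 1.56 treated. Endothelial, smooth muscle and leukocyte markers had medians of -0.63, -0.41 and -0.41 on replicate 2, and their medians over the fit were -0.22, -0.05 and -0.14, or -0.03, 0.13 and -0.00 without it. The summed endothelial signal was 6.87 and 6.85 untreated and 6.91, 6.97 and 6.50 treated, that of smooth muscle 10.4 and 12.5 untreated and 13.4, 10.5 and 10.3 treated, and that of leukocytes 7.68 and 8.63 untreated and 7.23, 7.02 and 9.73 treated. The fibroblast list had a median difference of -0.07 with and without replicate 2. The erythroid list (8 of 11 measured) had one of -0.14, or 0.03 without it, and summed to 4.17 and 3.85 untreated and 3.62, 5.18 and 4.15 treated. Sox10, a factor of Schwann and neural crest cells, was lower on all 3 treated arrays (-0.83 ± 0.43), and Wt1, a mesothelial factor, differed by -0.87 ± 0.57, or by -0.36 without replicate 2, with 2 of the 3 treated arrays well above background. Their part in the results above was not tested.

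Set against the higher concentrations at 6 h, the lowest one differed in few genes. Between 1/25 and 1/5, 0 of 30461 genes (0.0%) passed the test, with 849 at an unadjusted p under 0.05. Between 1/25 and 1, 6 genes (0.0197%) passed, all lower at 1/25, with 1459 at an unadjusted p under 0.05. Of these 6, 5 entered the test only because every array at concentration 1 was well above background, so that filter favoured this direction, and TC559524 entered through 1 and 1/5. Rhag, a membrane glycoprotein of red cells, was -8.20, -7.79 and -8.15 at 1/25 and -4.61, -3.16 and -2.89 at 1, at least 5.95-fold lower (limma, adjusted p = 0.0133). This rests on 1 probe. When dim probes were not filtered, a different probe stood for Rhag and went the other way, by 1.38. LOC291521 was at least 4.98-fold lower and Gjb6, which encodes connexin 30, at least 4.02-fold lower. XM_344672, described in the array files as similar to a protocadherin gamma, was at least 2.90-fold lower, and reads as uncertain because protocadherin genes have close copies. Bicral, a subunit of a chromatin remodelling complex, measured -2.21, -2.14 and -2.34 at 1 and -7.20, -8.12 and -5.59 at 1/25. TC559524, a transcript with no symbol, differed by -2.85 ± 0.40. Both were well above background on 1 of the 3 arrays at 1/25, so their low end is poorly measured. Adjusted p was 0.0133 to 0.0145 for these genes in limma. None of the 6 was called without treated replicate 2, or when only the 6 arrays of these groups entered the fit. The same held after quantile normalization and after scaling to the array median. They could not be tested among genes bright on all 5 arrays of the lowest concentration and untreated, as none of the 6 is in that set.

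The genes named against untreated did not all follow the same order over the concentrations. Akr1b7 averaged -3.98 untreated, -4.68 at 1, -5.64 at 1/5 and -6.49 at 1/25. Zfp865, Catsper2, Dock9, Mfsd8, Rpgrip1l and Plb1 had means in the same order. Akap7, Adam5, Pgr, Tec, Exd2, Vdr and Rspo2, also named as lower, did not. All but Plb1, which earlier results of these data named, were chosen as lower at 1/25 than untreated, which favours a low mean at 1/25. Ccn2 averaged 0.08 untreated, 1.36 at 1/25, -0.16 at 1/5 and -0.09 at 1, so the lowest concentration stood above the others (1/25 minus 1: 1.46 ± 0.39, limma adjusted p = 0.633). Tec, Akr1b7, Rspo2, Sorcs3 and Plb1 also had all 3 arrays at 1/25 outside the range of the 8 arrays of the first scan day. Among the 26 genes in the plot of single arrays this held for 5, and for 0 of them did all 12 arrays of later days lie outside that range. The comparisons with untreated, 1/5 and 1 share the arrays at 1/25, and each sets a later scan day against the first.

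**Figure D4:**
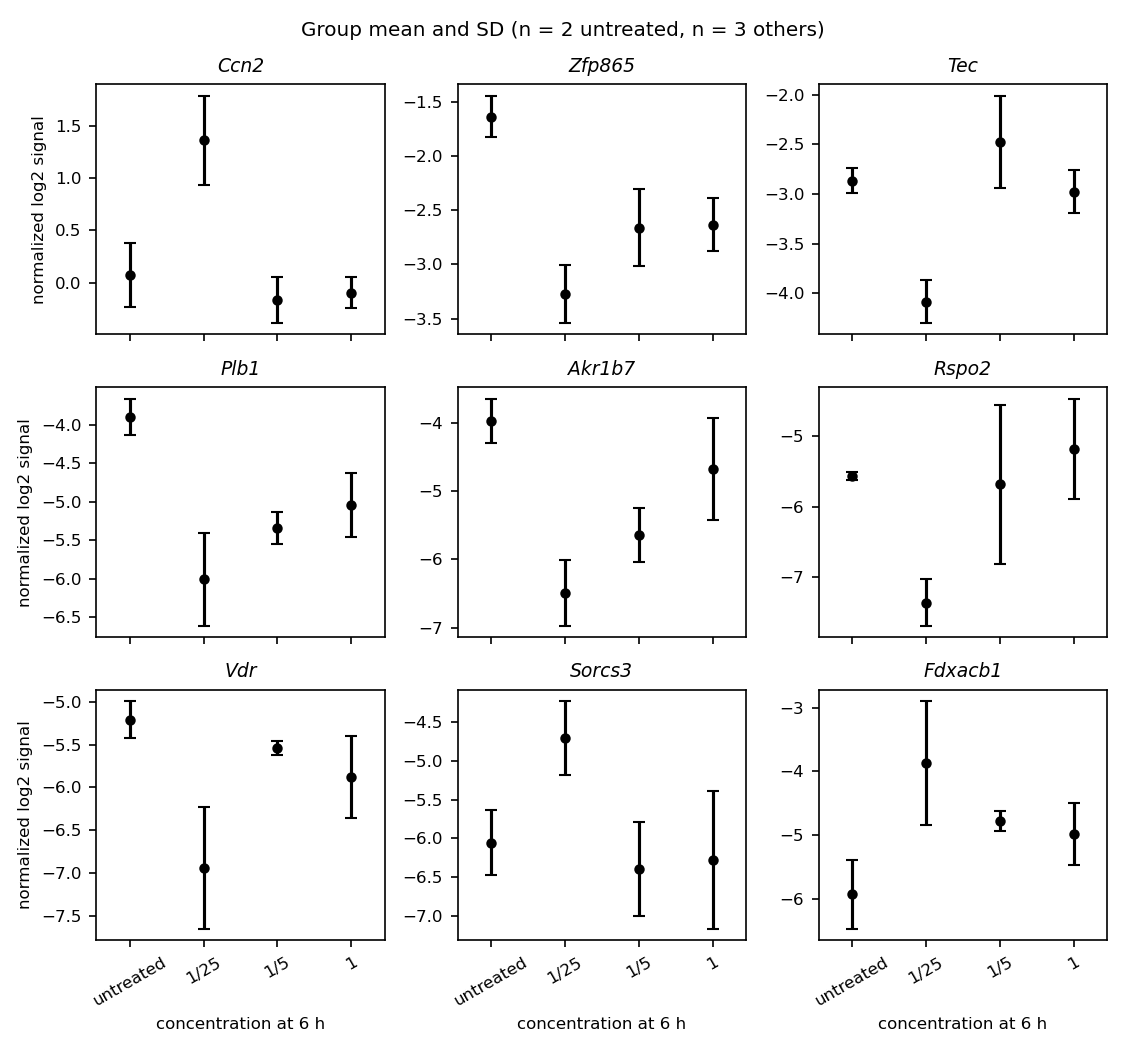
Mean and SD (bars) of normalized log2 signal at 6 h for 9 named genes, in untreated cultures (n = 2) and at reference concentrations 1/25, 1/5 and 1 (n = 3 each). Ccn2 is 1.36 at 1/25 against 0.08 untreated and -0.09 at concentration 1, and the scale differs between panels.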

How the data were processed

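Total RNA was taken with Trizol and amplified with a low-input linear kit, per the labels. Scanner values came from Agilent Feature Extraction 9.5.3.1 per the file headers: the unit is intensity, 1 colour, background-subtracted and not scaled between arrays. The authors' deposited table holds a ratio, which 99.8% of values matched within 0.05 log2 as signal over the array's median over the untreated mean; it served as an alternative. Array positions are on rn3.

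The log2 of the deposited processed intensity minus each array's 75th percentile was used. Control spots and outlier flags were left out and saturated spots kept. Probes well above background on every array of a group were kept (35065 of 41012), and the brightest stood for its gene. Of the 84 genes named by the rule below, 14 had several kept probes, and for 5 of these the probes differed in sign. Probes were named by accession (10861), symbol (5542) or synonym (3704), and 20905 kept the array file's name. Tests used limma 3.58.1 (R 4.3.3), fitting 7 group means over 20 arrays, empirical Bayes moderation and Benjamini-Hochberg adjustment (threshold 0.05). Precision is limited by how few arrays there are. No 2 arrays held identical values.

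Genes were named by rule. The 8 smallest p in each direction were taken among bright, non-overlapping genes differing by at least 1. The 5 smallest in each direction were taken among genes crossing the background limit. Genes known only by a locus, clone or sequence identifier were left out of these rankings. Up to 3 non-overlapping members of each list and 6 chosen genes (Ptgs1, Ptgs2, Ccn2, Fdxacb1, Plb1 and Zfp865) were also named. The comparison, lists and rule were chosen with earlier results of these data known. Alternatives changed scaling, background, filter, probes, arrays, slide block, array weights and replicate block. Python 3.11.15, pandas 2.3.3, numpy 2.4.6 and matplotlib 3.10.9 were used.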

Additional observations from a re-analysis of the deposited data

Results flagged for a closer look

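The test of the difference called 6 genes between concentrations 1/25 and 1 at 6 h in limma, all lower at 1/25. The log2 differences were -4.49 for Rhag, -3.38 for LOC291521, -2.85 for TC559524, -3.56 for XM_344672, -4.74 for Bicral and -3.03 for Gjb6. Rhag, LOC291521, XM_344672 and Gjb6 were well above background on 0 of the 3 arrays at 1/25 and on all 3 at concentration 1, so their differences are bounded from below only. Bicral and TC559524 were well above background on 1 of the 3 arrays at 1/25. Rhag, LOC291521, XM_344672, Bicral and Gjb6 passed the filter on dim probes through concentration 1 at 6 h alone, which favours a lower value at 1/25. The first scan day holds the arrays at concentration 1 and a later one those at 1/25, and day and concentration cannot be told apart.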

How the results depend on the processing

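Against untreated, 0 genes passed the test in every alternative run in limma. The lowest adjusted p was 0.0546 with array weights (2363 genes at an unadjusted p under 0.05), 0.139 without treated replicate 3 and 0.228 with slide as a random block. Against 1/5, 0 genes became 1 without the third array of 1/5 at 24 h, 2 with slide as a random block and 1225 with array weights, and ranged from 0 to 16 when single replicates were left out, the 16 without treated replicate 3. Against 1, the 6 genes became 0 with only the arrays of the comparison, after quantile normalization, after median scaling and in the deposited table. With bright probes on all 5 arrays 0 genes passed, but none of the 6 is in that set. The count was 11 without the third array of 1/5 at 24 h, 14 with slide as a random block and 554 with array weights. With single replicates left out it ranged from 0 (without treated replicate 2) to 32 (without treated replicate 3). The cause was not tested.

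Genes higher on all treated arrays (1336) ranged from 2981 to 4914 with single arrays left out, and lower ones (1969) from 3285 to 6986, as fewer arrays overlap more rarely. The 87 higher by at least 1 ranged from 178 to 590 in this way and became 132 with no filter, 37 with bright probes only, 237 after quantile normalization, 178 after median scaling and 173 in the deposited table. The 477 lower by at least 1 ranged from 366 to 2203, and became 868, 174 and 235 in the first 3 of these settings and 251 with normexp background correction, where 63 were higher.

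Signs turned for few named genes. With normexp Rcan1 was -0.13, Cacnb2 -0.12, Cyp1b1 -0.14 and Psmb7 -0.0289. With the mean of all kept probes Dnajb1 was -0.0507, Mcl1 -0.0859, Acsl1 -0.00352 and Cyp1b1 -0.00760. Decr1 was 0.0227 after median scaling and 0.0170 in the deposited table. With single arrays left out, Atf6 ranged from -0.633 to 0.00545 (without treated replicate 2) and Ptgs1 from -0.0581 (without untreated replicate 2) to 0.259. Rhag, 1/25 minus 1, was 1.38 when dim probes were not filtered, as a different probe then stood for the gene.

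The replicate numbers showed no steady pairing of the arrays: 12 of 57 same-number pairs had correlated deviations over 0.1, with a median of -0.04 against 0.04 for other pairs. Same-number pairs ranged widely, from -0.76 to 0.64, and those inside the comparison with untreated were 0.02 and -0.13. With the replicate block, 0 genes passed against untreated (437 at an unadjusted p under 0.05), 0 against 1/5 and 7 against 1, and Nat1 became -0.00385.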
